A study of Mus musculus with 6 samples.

Results

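The genes described here encode ATP-dependent chromatin remodelers and their partner subunits in mouse fully-grown germinal vesicle (GV) oocytes, which are held in prophase of the first meiotic division. They were taken as every row of the deposited table whose mouse symbol begins with Chd or Arid and a digit, with Smarc, or with Ino80. This gave 41 of the 28738 rows, of which 38 are protein-coding genes and 3 are the pseudogenes Smarca5-ps and Smarce1-ps1 and the long non-coding RNA Ino80dos. The comparison is between oocytes with a conditional knockout of Uba3 (Uba3 cKO) and control oocytes, 3 libraries of each, and each library was made from a pool of about 150 oocytes. Both groups carry the strain label C57/Bl6/N;129SvEv7. The Cre driver, the deleted part of Uba3, the genotype of the controls and the age of the mice are not stated in the labels. The labels also do not say whether the pools share animals, so a p-value here reflects pool-to-pool spread alone.

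Chromatin remodelers are large complexes built around an ATPase of the SNF2 family, which uses ATP to slide, evict or restructure nucleosomes. The CHD proteins other than CHD1L carry chromodomains beside the ATPase, and in CHD1 these bind methylated histone tails. SWI/SNF complexes use SMARCA4 (BRG1) or SMARCA2 (BRM) as the motor, with a shared core. An ARID subunit tells the canonical BAF and the PBAF forms apart. INO80 complexes move nucleosomes and act on the histone variant H2A.Z. Oocytes build up chromatin factors during growth and pass them to the embryo, and maternal BRG1 is known to be needed for the activation of the mouse zygotic genome. Uba3 codes for the catalytic part of the NEDD8-activating enzyme, and NEDD8 is a small modifier best known for switching on cullin ubiquitin ligases.

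Values are the authors' normalized values on a log2 scale, and sequencing depth is unknown. A linear value is 2 to the power of a deposited value. Uba3 stood at 10.03, 10.16 and 10.36 in the Uba3 cKO libraries, against 11.37, 11.46 and 11.34 in the control libraries, a difference of -1.21 (SE 0.10, adjusted p = 2.07e-05). Markers of oocytes were high in every library, with a mean log2 level over 12 genes of 13.46 ± 0.10 (SD, n = 3) in Uba3 cKO and 13.53 ± 0.06 (SD, n = 3) in control. Of these 12, Dazl rose (0.40) and Zp2 (-0.30) and Bmp15 (-0.25) fell, 8 had a difference below 0 and the median was -0.18. Of 11 markers of theca, stroma and luteal cells, 6 fell, none rose and all 11 had a difference below 0. The log2 of their summed linear values ran from 11.30 to 11.67 in Uba3 cKO libraries, against 11.81 to 12.47 in control libraries, and no marker was listed at 0. Of 11 granulosa and cumulus markers 2 rose and 2 fell, of 7 blood and immune markers 2 fell, and of 5 endothelial markers 1 fell. Of all genes tested, 8.14% rose or fell by the rule given below. The log2 of the summed linear values of the granulosa and cumulus markers ran from 13.97 to 14.34 in Uba3 cKO libraries. In control libraries it ran from 14.16 to 14.48. Levels here are thus those of the pools, which hold marker signal of other cells beside oocytes. In bulk samples fewer cells of a type and less RNA per cell cannot be told apart.

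Among the remodeler genes 5 rose and 1 fell in Uba3 cKO oocytes, and the changes were modest apart from Arid4a. Genes were kept when their linear value was 10 or more in at least 3 libraries, which kept 40 of the 41 and dropped Smarce1-ps1. A gene was called at an adjusted p under 0.05 in limma, with the adjustment over all 17450 genes kept. Arid4a, Arid5b, Chd1, Chd4 and Chd9 rose, Smarca2 fell, and 34 were not called. These 6 are 15% of the 40, with 12.5% of the 40 called higher and 2.5% lower. Of all genes kept, 8.14% were called, 5.64% higher and 2.5% lower. The median difference over the 40 was 0.06 (0.0080 without control replicate 2), against -0.01 over all genes kept. The groups did not overlap for 9 genes that were higher and 5 that were lower, together 35.0% of the 40. Of all genes kept, 27.9% had no overlap, 15.1% higher and 12.8% lower. An unadjusted p under 0.05 was found for 12 of the 40 and for 22.8% of all genes kept. Remodeler genes are long: the longest annotated transcript had a median of 5.82 kb over the 40, against 3.06 kb over all genes kept, and 27 of the 40 lay in the longest quartile of genes. That quartile had 8.54% of its genes called higher and 2.37% lower, so the share of called genes was itself larger among long genes than over all genes kept.

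**Figure D1:**
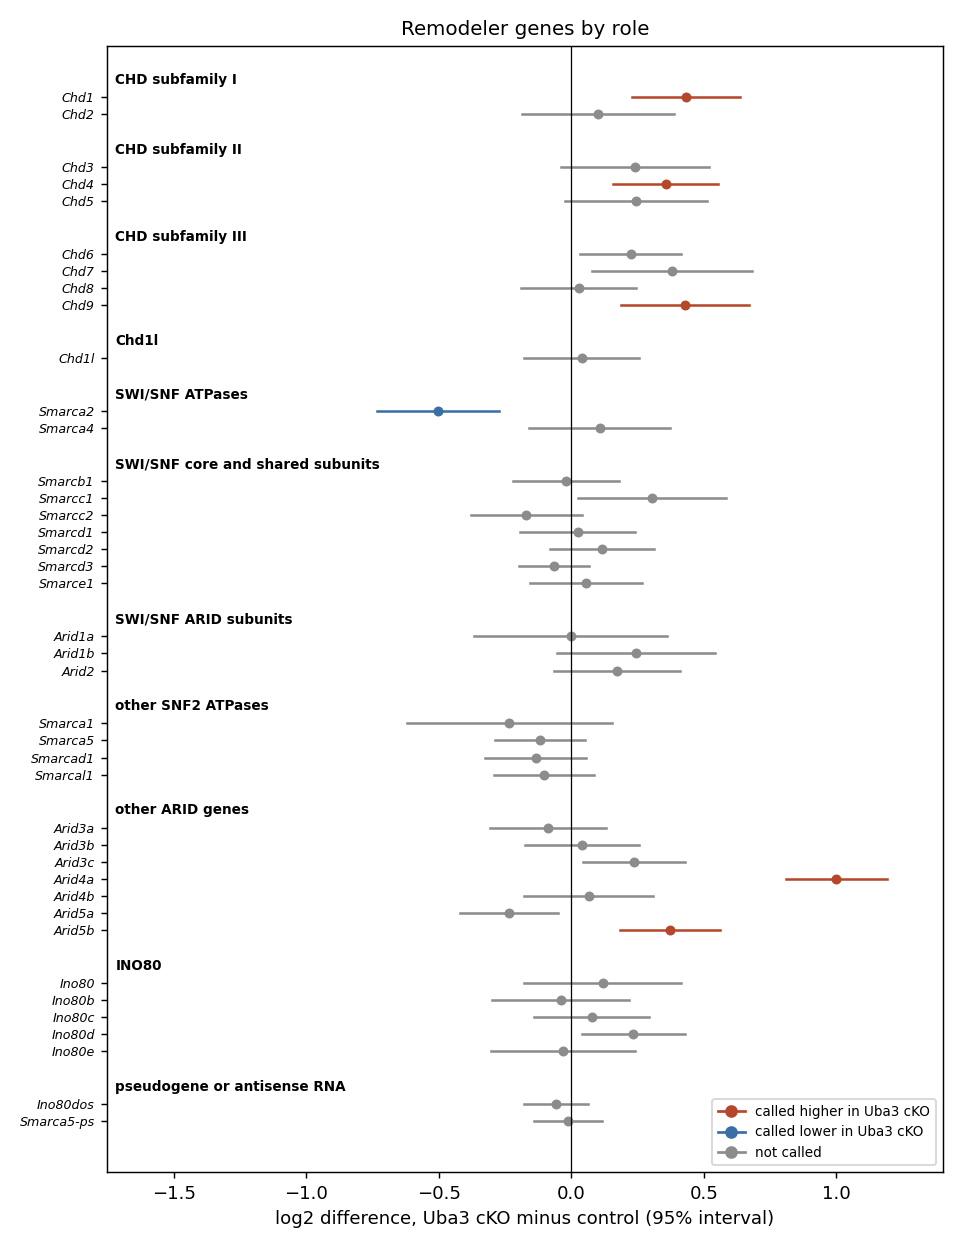
Log2 difference (Uba3 cKO minus control) with its 95% interval from limma for the 40 genes kept, grouped by role. Arid4a stands at 0.999, the other called rises lie between 0.36 and 0.43, and Smarca2 stands at -0.50.

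The clearest change was in Arid4a (ENSMUSG00000048118, chromosome 12), which encodes a retinoblastoma-binding protein of SIN3 histone deacetylase complexes. Its log2 values were 11.24, 11.19 and 11.26 in Uba3 cKO libraries, against 10.21, 10.21 and 10.27 in control libraries. Every Uba3 cKO library lay far above every control library, and the libraries of each group were close to each other. The difference was 0.999 (SE 0.09, adjusted p = 2.21e-05), a 1.999-fold higher level, and it stayed between 0.98 and 1.02 with any single library left out. The paralog Arid4b was not called, with a difference of 0.07 and a 95% interval from -0.18 to 0.31, and it was -0.01 after correction for length and GC content. The log2 ratio of Arid4a to Arid4b was 1.66 ± 0.14 (SD, n = 3) in Uba3 cKO and 0.73 ± 0.21 (SD, n = 3) in control libraries. The two-sided exact permutation p was 0.1, which is the lowest value possible with 3 libraries a group, and 0.13 adjusted over the 4 paralog pairs compared. These pairs were chosen after their values were seen.

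Arid5b (ENSMUSG00000019947, chromosome 10), a DNA-binding partner of the histone demethylase PHF2, also rose. Its values were 12.49, 12.64 and 12.60 in Uba3 cKO libraries, against 12.29, 12.11 and 12.22 in control libraries, with no overlap. The difference was 0.37 (SE 0.09, adjusted p = 0.0195), a 1.29-fold higher level. Its call ended without Uba3 cKO replicate 2 or 3 or control replicate 2 or 3 (adjusted p up to 0.0801). Arid5a, an RNA-binding member that stabilizes cytokine mRNAs, had a much lower level and was not called, at 6.41 ± 0.06 (SD, n = 3) in Uba3 cKO and 6.64 ± 0.05 (SD, n = 3) in control (adjusted p = 0.118). Its Uba3 cKO libraries all lay below its control libraries. Arid3c, a low-level gene for a DNA-binding protein, had values of 6.05, 5.68 and 5.87 in Uba3 cKO libraries, against 5.63, 5.62 and 5.64 in control libraries. It was not called (0.24, adjusted p = 0.131), but passed with the length and GC correction, which removes from each library its trend with these properties (0.31, adjusted p = 0.0438), and without Uba3 cKO replicate 2 (0.33, adjusted p = 0.0342). In all, 2 of the 7 ARID genes outside SWI/SNF rose and none fell, where 5.64% of all genes kept were called higher and 2.5% lower.

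**Figure D2:**
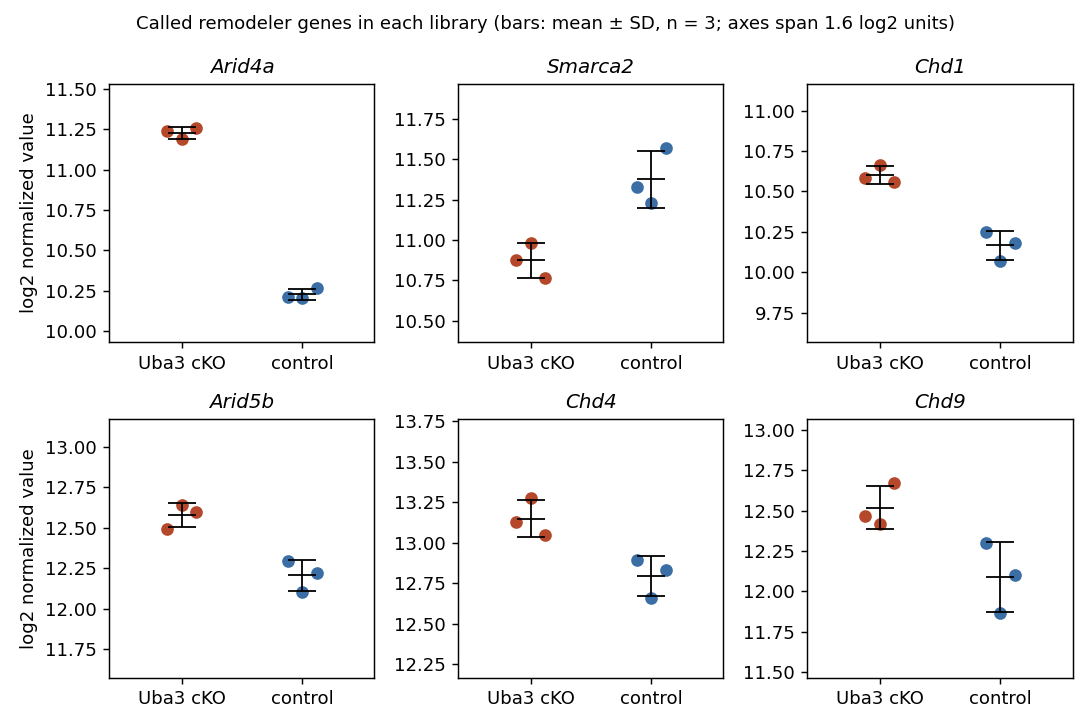
Log2 normalized value of the 6 called genes in each library, with the mean and SD of each group (n = 3). The groups do not overlap for any of them, the 3 control values of Arid4a lie between 10.21 and 10.27, and Smarca2 is the gene whose Uba3 cKO libraries lie below the control libraries.

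All 10 CHD genes had a difference above 0, although Chd8 turned to -0.05 after the length and GC correction, and 3 of the 10 rose, 1 in each main subfamily. Of all genes kept, 48.2% lay above 0, 5.64% were called higher and 2.5% lower. The longest quartile of genes held 9 of the 10, and 8.54% of that quartile was called higher. Chd1 (ENSMUSG00000023852, chromosome 17), whose chromodomains bind trimethylated lysine 4 of histone H3 at active promoters, had values of 10.58, 10.66 and 10.56 in Uba3 cKO libraries, against 10.25, 10.07 and 10.18 in control libraries. The groups did not overlap, and the difference was 0.43 (SE 0.09, adjusted p = 0.0126), a 1.35-fold higher level. Its call ended without Uba3 cKO replicate 1 or control replicate 3 (adjusted p up to 0.0548). Chd2, the other member of subfamily I, was not called (0.10, adjusted p = 0.703), and its groups overlapped. The log2 ratio of Chd1 to Chd2 was 2.01 ± 0.12 in Uba3 cKO and 1.68 ± 0.17 in control libraries (SD, n = 3). Its exact two-sided permutation p was 0.1, and 0.13 adjusted over the 4 pairs.

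In subfamily II, Chd4 (ENSMUSG00000063870, chromosome 6), the main ATPase of the NuRD histone deacetylase complex, was the most abundant CHD gene per kb of transcript. Its values were 13.13, 13.27 and 13.05 in Uba3 cKO libraries, against 12.89, 12.66 and 12.83 in control libraries. Each Uba3 cKO library was higher than each control library, with a difference of 0.36 (SE 0.09, adjusted p = 0.0310), a 1.28-fold higher level. Leaving out control replicate 1 kept this call, and leaving out any other library ended it (adjusted p up to 0.1003). It also ended under quantile scaling (adjusted p = 0.0589) and without the intensity trend of the variance (adjusted p = 0.0525). Chd3, its paralog in NuRD, had a difference of 0.24 and was not called (adjusted p = 0.296). Its difference was 0.09 without control replicate 2 and 0.36 without control replicate 1. The log2 ratio of Chd4 to Chd3 was 4.44 ± 0.02 (SD, n = 3) in Uba3 cKO and 4.33 ± 0.15 (SD, n = 3) in control libraries (exact two-sided permutation p = 0.4, also adjusted over the 4 pairs).

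In subfamily III, Chd9 (ENSMUSG00000056608, chromosome 8) rose. It stood at 12.46, 12.42 and 12.67 in Uba3 cKO libraries, against 12.30, 11.86 and 12.10 in control libraries. The groups did not overlap, with control replicate 1 closest to the Uba3 cKO libraries. The difference was 0.43 (SE 0.11, adjusted p = 0.0318), a 1.35-fold higher level, and the call ended without Uba3 cKO replicate 1 or 3 or control replicate 2 or 3 (adjusted p up to 0.146). After the length and GC correction it was 0.33 (adjusted p = 0.0553), and without the intensity trend its adjusted p was 0.0690. Chd7, the CHARGE syndrome gene, differed by 0.38 with wide spread, at 12.05, 11.87 and 11.66 in Uba3 cKO libraries, against 11.74, 11.14 and 11.57 in control libraries, and was not called (adjusted p = 0.120). Chd6 (0.22, adjusted p = 0.144) and Chd8, a regulator of beta-catenin targets (0.03, adjusted p = 0.901), were not called either. Chd1l, a poly(ADP-ribose)-regulated remodeler of DNA repair that lacks the chromodomains, differed by 0.04 (95% interval -0.18 to 0.26).

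Among SWI/SNF genes the ATPase gene Smarca2 (ENSMUSG00000024921, chromosome 19) fell, and none of the other 11 subunits was called. Smarca2 had values of 10.88, 10.98 and 10.76 in Uba3 cKO libraries, against 11.33, 11.23 and 11.57 in control libraries. All Uba3 cKO libraries were below all control libraries, with control replicate 3 the highest. The difference was -0.50 (SE 0.11, adjusted p = 0.0111), a 1.42-fold lower level. Its call ended without Uba3 cKO replicate 3 or control replicate 3 (adjusted p up to 0.0741). The theca, stroma and luteal markers were lower too: their mean log2 level was 7.403, 7.45 and 7.26 in Uba3 cKO libraries, against 7.59, 7.98 and 8.04 in control libraries (exact two-sided permutation p = 0.1, the smallest possible). Their order over libraries matched that of Smarca2 among Uba3 cKO libraries. Among control libraries it did not. Replicate 3 was the highest there in both, but replicate 2 had the lowest Smarca2 and replicate 1 the lowest marker mean. An order over 3 libraries cannot show whether the levels are linked. The mean log2 level of other markers differed by -0.14 (blood and immune), -0.10 (endothelial), -0.13 (granulosa and cumulus) and -0.06 (oocyte). The exact two-sided permutation p was also 0.1 for blood and immune and for endothelial markers. In both lists every Uba3 cKO library lay below every control library. It was 0.3 for granulosa and cumulus markers and 0.7 for oocyte markers by the same permutation test. The part of any of these markers in the lower Smarca2 was not tested.

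Smarca4, the alternative motor, was not called. It stood at 10.63, 10.37 and 10.24 in Uba3 cKO libraries, against 10.47, 10.08 and 10.37 in control libraries, so that the groups overlapped. Its difference was 0.11 (95% interval -0.16 to 0.37, adjusted p = 0.658). The log2 ratio of Smarca2 to Smarca4 was 0.25, 0.62 and 0.52 in Uba3 cKO libraries, against 0.86, 1.14 and 1.20 in control libraries (exact two-sided permutation p = 0.1, the smallest possible, 0.13 adjusted over the 4 pairs). The groups did not overlap in this ratio, and the Uba3 cKO libraries were the lower ones. This pair was chosen after its values were seen, and the ratio is not separate from the call of Smarca2.

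None of the 7 core and shared SWI/SNF subunits and none of the 3 ARID subunits was called in limma, and 1 of the 10, Smarcc1, had an unadjusted p under 0.05. Smarcc1 (BAF155), a scaffold of the core, stood at 9.70, 9.90 and 9.85 in Uba3 cKO libraries, against 9.81, 9.25 and 9.49 in control libraries (0.31, adjusted p = 0.176). Its paralog Smarcc2 (BAF170) had a difference of -0.17, and the other 5 core subunits lay between -0.07 and 0.11. The ARID subunits carried wide spread. Arid1a, which marks canonical BAF complexes, was at 11.77, 11.71 and 11.11 in Uba3 cKO libraries, against 11.85, 11.24 and 11.51 in control libraries. Its difference was -0.0022 with a 95% interval from -0.37 to 0.36, and it became 0.21 without Uba3 cKO replicate 3 and 0.16 without control replicate 1. Arid1b, its paralog, differed by 0.25 and Arid2, the subunit of PBAF complexes, by 0.17. Without control replicate 1 Smarcc1 (0.45, adjusted p = 0.0248), Arid1b (0.40, adjusted p = 0.0483) and Chd7 (0.51, adjusted p = 0.0287) were called higher. Without control replicate 2 the same genes differed by 0.17 (adjusted p = 0.498), 0.10 (adjusted p = 0.732) and 0.21 (adjusted p = 0.384).

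The other 4 SNF2 ATPases all had differences below 0 and none was called in limma, nor did any have an unadjusted p under 0.05. For Smarca5 and Smarcad1 every Uba3 cKO library lay below every control library, as for 12.8% of all genes kept. Smarca5 (SNF2H), the ISWI motor, stood at 13.21 ± 0.01 (SD, n = 3) in Uba3 cKO and 13.33 ± 0.08 (SD, n = 3) in control, with a difference of -0.12 (95% interval -0.29 to 0.05). Smarcal1, which anneals DNA at stalled replication forks, differed by -0.10, and Smarcad1, a remodeler that acts at replicating and broken DNA, by -0.13. Smarca1 (SNF2L), the X-linked ISWI paralog, varied widely within groups, at 8.62, 9.32 and 8.61 in Uba3 cKO libraries, against 9.42, 8.88 and 8.96 in control libraries, and the groups overlapped (-0.23, adjusted p = 0.480). The difference ran from -0.47 without Uba3 cKO replicate 2 to -0.07 without control replicate 1. The pseudogene Smarca5-ps, whose reads could be shared with Smarca5, stood at 4.38 ± 0.12 (SD, n = 3) in Uba3 cKO and 4.39 ± 0.05 (SD, n = 3) in control.

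None of the 5 INO80 genes was called in limma, and 1 had an unadjusted p under 0.05, where 22.8% of all genes kept had one. That gene was Ino80d, an accessory subunit, with values of 12.54, 12.50 and 12.48 in Uba3 cKO libraries, against 12.40, 12.12 and 12.30 in control libraries. The groups did not overlap, and the difference was 0.23 (SE 0.09, adjusted p = 0.137). It was 0.13 after the length and GC correction (adjusted p = 0.323). The ATPase gene Ino80 differed by 0.12 (95% interval -0.18 to 0.42; -0.06 without control replicate 2), and Ino80b, Ino80c and Ino80e lay between -0.04 and 0.08. The non-coding RNA Ino80dos overlaps exons of Ino80d by 431 bases on the opposite strand in the annotation. Its own level was low, at 4.09 ± 0.08 (SD, n = 3) in Uba3 cKO and 4.15 ± 0.09 (SD, n = 3) in control.

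Promoter sequence was at hand in RefSeq for 29 of the 41 genes, and for Arid5b, Chd4, Chd9 and Smarca2 among the called ones. The 250 bases before the first listed start of these 4 are shown because 3 of the genes rose and 1 fell. The sequences are from build GRCm38.p6, 5′ to 3′ on the strand of the gene, at chr10:68278727-68278976 (minus strand), chr6:125095731-125095980, chr8:90828585-90828834 and chr19:26604910-26605159 (plus strand). Capitals mark GC boxes (GGGCGG, or CCGCCC on the other strand) and CCAAT boxes (CCAAT or ATTGG). Such matches can share letters where they adjoin, which was not so in these windows.
Arid5b: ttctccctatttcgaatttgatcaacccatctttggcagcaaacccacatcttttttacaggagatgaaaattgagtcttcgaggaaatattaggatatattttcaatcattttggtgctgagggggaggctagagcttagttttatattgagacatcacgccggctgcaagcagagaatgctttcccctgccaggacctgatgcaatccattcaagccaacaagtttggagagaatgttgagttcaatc
Chd4: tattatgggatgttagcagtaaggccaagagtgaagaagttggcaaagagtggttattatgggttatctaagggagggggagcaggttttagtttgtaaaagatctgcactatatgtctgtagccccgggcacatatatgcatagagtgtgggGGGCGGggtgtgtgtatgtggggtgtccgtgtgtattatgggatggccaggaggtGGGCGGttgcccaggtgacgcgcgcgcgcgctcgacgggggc
Chd9: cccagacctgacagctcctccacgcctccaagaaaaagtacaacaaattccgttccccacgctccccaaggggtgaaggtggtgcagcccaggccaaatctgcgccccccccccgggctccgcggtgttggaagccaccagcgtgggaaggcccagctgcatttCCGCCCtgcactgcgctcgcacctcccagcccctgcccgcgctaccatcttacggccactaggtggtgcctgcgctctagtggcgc
Smarca2: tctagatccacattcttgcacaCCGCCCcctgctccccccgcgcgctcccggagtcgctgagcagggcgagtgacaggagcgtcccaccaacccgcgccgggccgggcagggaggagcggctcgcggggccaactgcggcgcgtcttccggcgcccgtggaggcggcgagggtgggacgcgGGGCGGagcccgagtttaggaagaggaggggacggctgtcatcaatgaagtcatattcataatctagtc

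A GC box was found in the windows of Chd4 (2), Chd9 (1) and Smarca2 (2) and not in that of Arid5b, and none of these 4 windows held a CCAAT box. Of all 32851 windows in the table, 32.7% held a GC box and 33.8% a CCAAT box. The windows of Chd4, Chd9 and Smarca2 were 54.0%, 66.0% and 68.4% G and C, and that of Arid5b 42.0%. Chd4 and Chd9 each have a further start in the table. The window of the second Chd4 start held 3 GC boxes and 1 CCAAT box and was 67.6% G and C, and that of the second Chd9 start held no box of either kind and was 33.6% G and C. A match describes these letters and is not a bound site.

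Levels per length differed widely among the genes, here as linear value per kb of the longest transcript. Smarca5 ranked first at 1546 ± 15.6 (SD, n = 3) in Uba3 cKO and 1681 ± 91.7 (SD, n = 3) in control. Smarcd2, a core subunit of SWI/SNF, followed at 1504 ± 135 (SD, n = 3) and 1386 ± 32.3 (SD, n = 3) in the same groups, and Chd4 at 1359 ± 110 (SD, n = 3) and 1063 ± 89.4 (SD, n = 3). In Uba3 cKO libraries Smarca5 and Smarcd2 differed by less than the SD of Smarcd2, and Chd4 lay below Smarcd2 by slightly more than that SD. In control libraries neighbours in this order were separated by more than their SD. Among the SWI/SNF motors Smarca2 stood at 318 ± 24.1 (SD, n = 3) in Uba3 cKO and 451 ± 56.5 (SD, n = 3) in control, and Smarca4 at 215 ± 29.9 (SD, n = 3) and 200 ± 26.5 (SD, n = 3).

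Some paralogs differed widely in level per kb, as in CHD subfamily II and the SMARCD subunits, while others such as Smarcc1 and Smarcc2 were close. Chd3 stood far below Chd4, with a linear value per kb of 57.5 ± 4.1 (SD, n = 3) in Uba3 cKO and 49.2 ± 9.1 (SD, n = 3) in control. Chd5, known for its role in nerve cells and testis, was at 23.9 ± 3.8 (SD, n = 3) in Uba3 cKO and 20.1 ± 2.1 (SD, n = 3) in control. Of the SMARCD subunits, Smarcd2 was the abundant one and Smarcd3, known from heart and muscle, the lowest protein-coding gene of all, at 7.20 ± 0.09 (SD, n = 3) in Uba3 cKO and 7.54 ± 0.57 (SD, n = 3) in control. In the annotation 48.2% of the exonic bases of Smarcd3 overlap Chpf2 on the opposite strand, so its level is uncertain. Arid4a stood above Ino80d in Uba3 cKO and below it in control oocytes, at 480 ± 12.1 (SD, n = 3) in Uba3 cKO and 240 ± 5.79 (SD, n = 3) in control for Arid4a, and 426 ± 9.54 (SD, n = 3) and 363 ± 34.2 (SD, n = 3) for Ino80d.

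**Figure D3:**
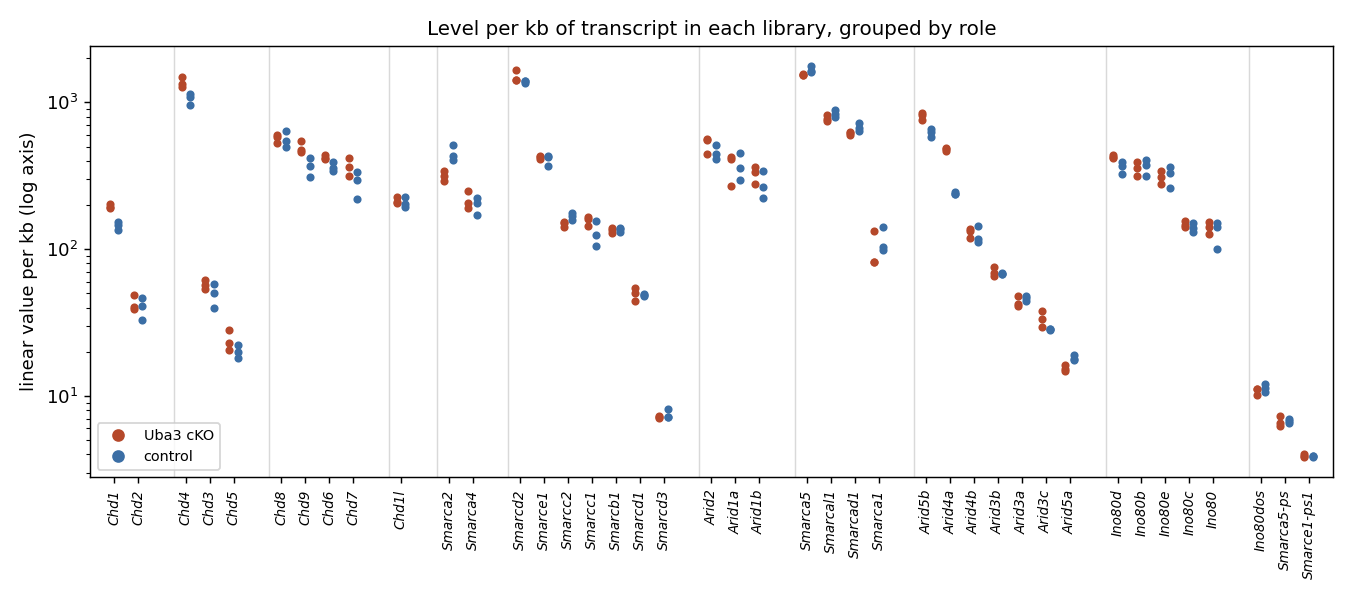
Linear value per kb of the longest transcript (log axis) in each Uba3 cKO (left, red) and control (right, blue) library for all 41 genes, grouped by role. Smarca5, Smarcd2 and Chd4 lead, the pseudogenes and Ino80dos lie lowest with Smarcd3, and the groups of Arid4a stand apart.

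Control replicate 2 had the lowest mean level of the CHD genes, and control replicate 3 lay between it and control replicate 1. The mean deviation of the 10 CHD genes from the average library was 0.12, 0.15 and 0.11 in Uba3 cKO replicates 1, 2 and 3, and 0.05, -0.30 and -0.11 in control replicates 1, 2 and 3. The 4299 genes in the longest quartile also had their lowest mean in control replicate 2. Their mean deviations were 0.03, 0.04 and 0.01 in the Uba3 cKO libraries, against 0.03, -0.08 and -0.03 in the control libraries. Without control replicate 2 the median difference of the CHD genes was 0.17, against 0.24 with it, 8 of 10 lay above 0, and Chd1 alone of them was called. Without control replicate 1 that median was 0.34, 10 of 10 lay above 0, and 4 were called higher. After the length and GC correction the CHD median was 0.24, 9 of 10 lay above 0, and Chd1 and Chd4 were called. Mean deviations of the CHD genes were then 0.08, 0.10 and 0.11 in Uba3 cKO libraries, against 0.01, -0.20 and -0.09 in control libraries. Over all the remodeler genes, 3 were called without control replicate 2 (Arid4a, Chd1 and Smarca2) and 1 without control replicate 3 (Arid4a). Without Uba3 cKO replicate 1 there were 3 (Arid4a, Arid5b and Smarca2), without Uba3 cKO replicate 3 there were 2 (Arid4a and Chd1), and without control replicate 1 there were 9. Calls over all genes moved as well, from 1421 with every library to 780 without control replicate 2 and 618 without control replicate 3. They numbered 681 without Uba3 cKO replicate 1, 709 without Uba3 cKO replicate 3 and 1637 without control replicate 1.

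**Figure D4:**
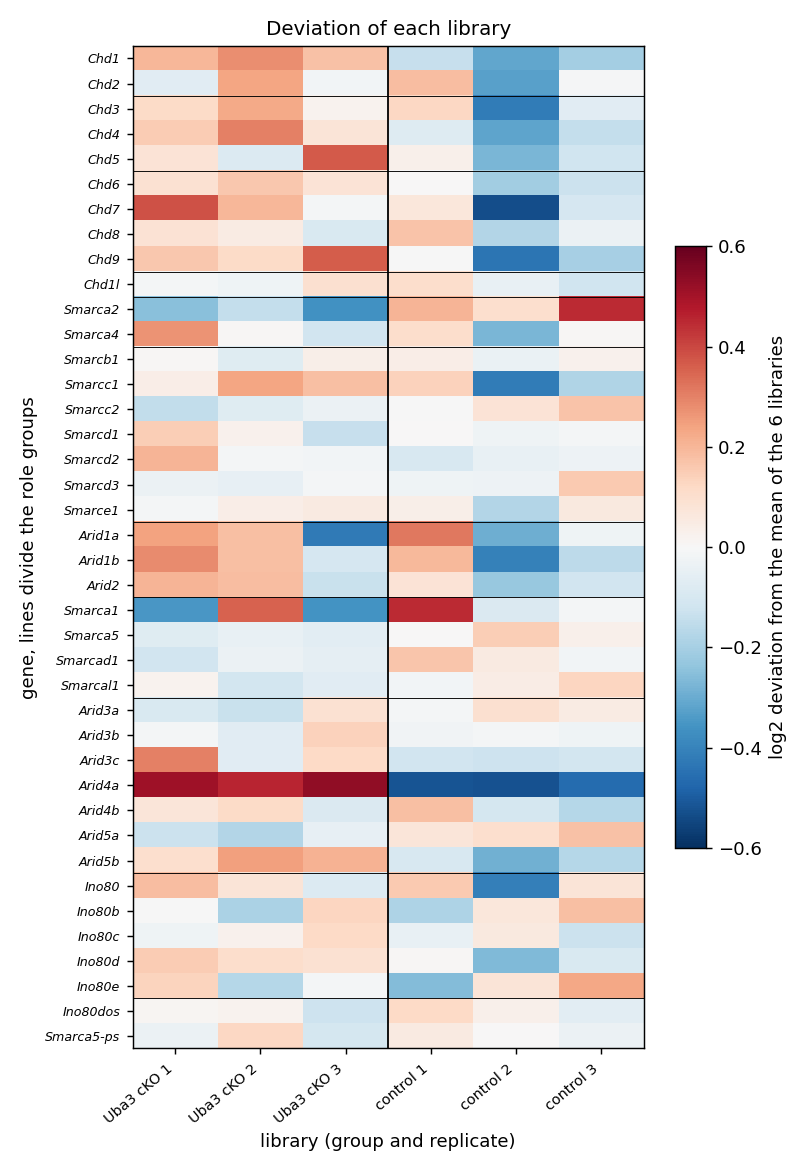
Log2 deviation of each library from the mean of the 6 libraries for the 40 genes kept, red above and blue below, with lines between role groups. Arid4a divides the groups in every library, while much of the CHD block is deepest blue in control replicate 2, where its mean deviation is -0.30.

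Partners of these complexes that carry other names were called at shares near those of all genes. Of 77 such genes, 76 were in the table and all 76 were kept. Of these, 4 rose (5.26%) and 1 fell (1.32%), where 5.64% and 2.5% of all genes kept were called, and their median difference was 0.01. The 9 ISWI partners, of median length 7.9 kb, had a median difference of 0.21 (0.13 after the length and GC correction). For the CHD genes, of median length 8.8 kb, the median was 0.24 before and after this correction, but most single CHD differences became smaller. Examples are Chd1 (0.43 to 0.34), Chd6 (0.22 to 0.14) and Chd9 (0.43 to 0.33), while that of Chd1l went from 0.04 to 0.05. Uncorrected medians of the other partner lists lay between -0.01 and 0.04. Among 17 SWI/SNF partners Dpf3, a PHD finger subunit of BAF, rose by 0.66 (SE 0.10, adjusted p = 0.00124). Its values were 11.53, 11.37 and 11.35 in Uba3 cKO libraries, against 10.89, 10.64 and 10.73 in control libraries. Bicral, a subunit of the non-canonical BAF complex, rose by 0.54 (SE 0.10, adjusted p = 0.00574). Both calls held with any single library left out.

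Among 9 INO80 partners Yy1, a zinc finger factor found with INO80, rose by 0.37 (SE 0.10, adjusted p = 0.0391), and among 11 further SNF2-family ATPases Hltf, a remodeler of replication forks, rose by 0.40 (SE 0.11, adjusted p = 0.0383). Each of these calls held without control replicate 1 and was lost without any of the other 5 libraries (adjusted p up to 0.151 for Yy1 and 0.181 for Hltf). That of Yy1 also ended without the filter on low values (adjusted p = 0.0623) and that of Hltf after the length and GC correction (0.0544) and without the intensity trend (0.0569). Both ended under quantile scaling (adjusted p = 0.0528 for Yy1 and 0.0535 for Hltf). Atrx, an X-linked ATPase of heterochromatin that is bound to pericentric repeats in mouse oocytes, fell by 0.61 (SE 0.09, adjusted p = 8.56e-04). Atrx had 13.72, 13.84 and 13.55 in Uba3 cKO libraries, against 14.41, 14.27 and 14.27 in control libraries, with no overlap, and the call held with any single library left out. No gene of the 13 NuRD and ChAHP partners, the 17 of SRCAP and TIP60-p400 or the 9 ISWI partners was called in limma, and 1, 2 and 2 of them had an unadjusted p under 0.05, against 22.8% of all genes kept.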

How the data were processed

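Per the labels' protocols, RNA came from a PicoPure kit, libraries from an Illumina TruSeq RNA kit and reads from a NovaSeq. The tools listed in the submitters' processing notes are fastp, STAR, featureCounts and DESeq2, with the build GRCm39 and no settings. How strand and multi-mapping reads were handled is not stated, so overlapping and near-identical genes are uncertain. The deposited values are on a log2 scale, normalized between libraries by the authors. The scale was read from the values (0.0363 to 18.01), and the transform is not named. If it shrinks low values, differences of low genes are understated. No counts were used.

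Symbols, chromosomes and transcript lengths came from GENCODE M21, of an earlier build, and 27660 IDs (96.2%) had a symbol. Differences are Uba3 cKO minus control. The fit used limma 3.58.1 (R 4.3.3) with a variance trend on intensity and no pseudocount, and p-values were adjusted by Benjamini-Hochberg over the 17450 genes kept. The planned log2(value + 1) was run as an alternative because the table was already in log2. The genes and lists were chosen with earlier results of these data known, and lists are described, not tested. The genes named were all called ones, the 2 with the most signal per kb in each role group, the largest difference where none was called and called partners. Others were named after their values were seen. A simulation over 17450 genes changed 200 of them, with noise drawn separately for each gene. In it, 14% of genes changed by 0.3 on the log2 scale were recovered, 78% at 0.6 and 98% at 1, and 9 of 153 calls were false. The real fit called 1421 genes and its libraries can shift many genes together, so these rates need not hold for it. Alternatives covered the pseudocount, filter, scaling, variance model, replicate block, length and GC content, and each library left out.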

Additional observations from a re-analysis of the deposited data

How the results depend on the processing

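Under the 9 alternatives other than leaving out a library, Arid4a, Smarca2, Dpf3, Bicral, Atrx and Uba3 kept their calls. The number of called remodeler genes, 6, was 3 under the length and GC correction with the replicate block, and the number called higher, 5, was 2 there and 3 without the intensity trend. Over all genes the number called, 1421, was 1213 under that correction and block. The number called higher, 984, was 798 there and 848 without the intensity trend. Same-numbered libraries did not deviate together (correlations of -0.09, -0.20 and -0.05 for numbers 1, 2 and 3). The labels do not say whether equal numbers mark pairs. Deviations within a group of 3 sum to 0, so these correlations cannot settle it. With the replicate block alone 6 remodeler genes and 1258 genes in all were called.

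With 1 library left out, the count of called remodeler genes ran from 1 to 9, of those higher from 1 to 8 and of those lower from 0 to 1. The count over all genes ran from 618 to 1637, with 482 to 1014 higher and 136 to 623 lower. The median difference of the CHD genes ran from 0.17 to 0.34.

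Small differences that were not called changed sign. After the length and GC correction, with or without the replicate block, they were 0.040 for Ino80b, -0.048 for Chd8 and -0.011 for Arid4b. With 1 library left out they ran from -0.14 to 0.044 for Ino80b, -0.053 to 0.12 for Chd8, -0.0042 to 0.17 for Arid4b, -0.011 to 0.10 for Chd1l, -0.15 to 0.21 for Arid1a, -0.019 to 0.097 for Smarce1, -0.036 to 0.22 for Chd2, -0.0035 to 0.19 for Smarca4 and -0.059 to 0.23 for Ino80. Arid5b, Chd1, Chd4 and Chd9 were not called with the correction and the block together (adjusted p from 0.0519 to 0.0753), and Yy1 was not called with the block (adjusted p = 0.0608). The cause was not tested. Depth is unknown, so what it limits could not be stated.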
